A study of Mus musculus with 48 samples.

Results

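The 4 Hox clusters of the mouse genome, HoxA on chromosome 6, HoxB on chromosome 11, HoxC on chromosome 15 and HoxD on chromosome 2, were followed through 2 comparisons of open chromatin in small cell lung tumors of mice. Members were the merged ATAC-seq peaks whose centre lay in 1 of 4 windows of build mm9: 52 to 52.35 Mb of chromosome 6, 95.95 to 96.35 Mb of chromosome 11, 102.65 to 102.97 Mb of chromosome 15 and 74.3 to 74.75 Mb of chromosome 2. The rule used position alone and no measured value. It gave 84 peaks of 501 bp out of 114043, or 0.0737%: 9 in HoxA, 48 in HoxB, 13 in HoxC and 14 in HoxD. For all 4 clusters, a peak of the cluster here means a peak of its window, which need not lie among the Hox genes. The 5′ and 3′ sides compared below are likewise sides of the window.

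Hox genes encode homeodomain transcription factors that give cells their identity along the body axis. They lie in clusters in the order of their use: genes at the 3′ end (low group numbers) are switched on earlier and further forward in the embryo, and genes at the 5′ end (group 13) later and further back. Polycomb proteins keep silent Hox genes in closed chromatin, and enhancers for HoxD genes in limb and other tissues lie in the gene-poor stretches on both sides of that cluster. Adult lung is known for keeping on several 3′ and middle Hox genes, such as Hoxa5 and Hoxb5.

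In ATAC-seq, the Tn5 transposase inserts adapters where DNA is accessible. All 48 libraries came from tumors with the genotype Trp53-/-, Rb1-/-, p130-/- and the R26mG reporter allele, so all groups lack these tumor suppressors. Cre was delivered by adenovirus, either Ad-CMV-Cre, whose promoter is active in many cell types, or Ad-CGRP-Cre, whose promoter is that of a neuroendocrine peptide. The CMV comparison set 8 Nfib-amplified libraries (5 liver metastases, 1 lymph node metastasis and 2 lung tumors) against 7 not amplified libraries, all from lung tumors. The CGRP comparison set 7 liver metastases against 11 lung tumors, 1 of them Nfib-amplified. Nfib encodes nuclear factor I/B, a DNA-binding protein. In the CMV comparison, amplification and tissue cannot be told apart. A further 15 CMV libraries of low enrichment entered only a pool of summits. The tables hold fitted values and no value per library, so values by sample and library depth are not analysed here. Nothing in the labels says which libraries came from the same animal, so the p-values measure the spread between libraries.

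The order of the 39 Hox genes was taken from RefSeq (GRCm38.p6), and it sets the sides of each window: the 5′ side, with the group 13 gene, is at the high coordinates of HoxA and at the low coordinates of HoxB, HoxC and HoxD. The next protein-coding genes beyond the 5′ end of HoxD are Evx2 and Lnpk, and beyond its 3′ end Mtx2. A RefSeq promoter was at hand for 22 of the 39 genes (24 promoters). The 250 bases before the start had a median GC content of 58.6% and 12.5 CpG dinucleotides, against 52.4% and 6 over 32851 mouse promoters. The nuclear factor I half-site TTGGCA, searched on both strands (TGCCAA on the other), lay in 3 of 24 Hox promoters, or 12.5%, and in 12.3% of all promoters of that length. Its palindrome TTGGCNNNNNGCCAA, which a half-site can overlap, lay in 0 Hox promoters and in 0.0365% of all. The promoters below are the 3 with a half-site, in capitals, and that of Hoxd13, which marks the 5′ end of HoxD and holds none. All are on the plus strand, 5′ to 3′, in GRCm38.p6 coordinates, which cannot be set against the mm9 peaks.
Hoxd13, needed for digits and the urogenital tract, chr2:74667975-74668224: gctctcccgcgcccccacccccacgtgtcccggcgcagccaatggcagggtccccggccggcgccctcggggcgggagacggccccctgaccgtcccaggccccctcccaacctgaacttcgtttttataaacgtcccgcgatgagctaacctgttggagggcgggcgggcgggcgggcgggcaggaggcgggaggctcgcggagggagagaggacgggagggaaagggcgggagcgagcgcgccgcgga
Hoxd11, needed for forearm and kidney, chr2:74679308-74679557: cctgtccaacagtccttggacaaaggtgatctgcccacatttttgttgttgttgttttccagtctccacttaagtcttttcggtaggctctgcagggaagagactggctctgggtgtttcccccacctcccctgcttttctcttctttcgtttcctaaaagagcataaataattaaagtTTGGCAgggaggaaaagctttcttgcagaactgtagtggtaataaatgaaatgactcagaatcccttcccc
Hoxd1, the 3′ gene of HoxD, chr2:74762730-74762979: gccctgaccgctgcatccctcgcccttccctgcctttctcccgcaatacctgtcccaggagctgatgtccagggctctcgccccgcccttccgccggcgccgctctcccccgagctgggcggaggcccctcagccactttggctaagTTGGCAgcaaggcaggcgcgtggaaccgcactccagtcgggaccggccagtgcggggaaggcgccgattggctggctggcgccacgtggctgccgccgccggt
Hoxb1, needed for hindbrain segments, chr11:96365508-96365757: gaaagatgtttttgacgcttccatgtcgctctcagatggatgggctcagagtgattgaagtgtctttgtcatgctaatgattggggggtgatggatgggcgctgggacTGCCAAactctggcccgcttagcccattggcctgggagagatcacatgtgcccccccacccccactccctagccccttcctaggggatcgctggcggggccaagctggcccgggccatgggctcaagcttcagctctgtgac
The half-site began 71 bases before the start in Hoxd11, 103 in Hoxd1 and 142 in Hoxb1. These matches are letters in a window and say nothing of binding.

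Peaks were spread unevenly over the clusters. HoxB held 12 peaks per 100 kb, HoxC 4.06, HoxD 3.11 and HoxA 2.57, and the 1520 kb of windows together 5.53. The median mean normalised count of Hox peaks, the authors' average over libraries, was 15.9, below the 21.2 of all peaks, and 29 of 84 Hox peaks were above that level. By cluster the median was 20.2 in HoxD, 19 in HoxB, 10.3 in HoxA and 8.67 in HoxC. The strongest Hox peak was chr2:74416739-74417239 in HoxD, with a mean count of 221. Next in HoxD was chr2:74663714-74664214, at 81.9. The strongest peak of HoxB, chr11:96268861-96269361, had a mean count of 77.8, that of HoxC 35.9 and that of HoxA 16.9. No HoxA peak and 2 of 13 HoxC peaks were above the median mean count of all peaks. Long stretches held no merged peak. They were 147 kb from the start of the HoxC window to the centre of its first peak and 93.9 kb at the 5′ side of the HoxA window. Others were 77.1 kb inside the HoxD window and 69.6 kb in the 5′ part of the HoxB window.

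Few Hox peaks were raised in the CMV comparison, and those of HoxA, HoxB and HoxC mostly had values below 0. In the authors' deposited table the median log2 fold change (Nfib-amplified over not amplified) was -0.33 over the 84 Hox peaks and 0.60 over all peaks, and 24 of 84 Hox values were above 0, against 66.2% of all. At an adjusted p under 0.05, 9 Hox peaks were raised (10.7%), against 34.3% of 113873 peaks tested, and 7 were lowered (8.33%), against 12.2%. The 16 calls compare with 46.5% of all peaks called in either direction. Relative to the median of all peaks, the split changed to 7 raised and 31 lowered. The share of all peaks called this way is not given here, so these counts have no background. By cluster, in counts without a test, 6 of 14 HoxD peaks were raised and 0 lowered (0 also at an unadjusted p under 0.05), while the 70 peaks of HoxA, HoxB and HoxC held 3 raised and 7 lowered. The cluster medians were 0.17 in HoxD, -0.36 in HoxB, -0.57 in HoxC and -0.61 in HoxA. That of HoxD turned negative once the median of all peaks was subtracted. The median SE over Hox peaks was 0.55, so a typical Hox peak needed a log2 change of 1.09 to reach an unadjusted p of 0.05.

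**Figure D1:**
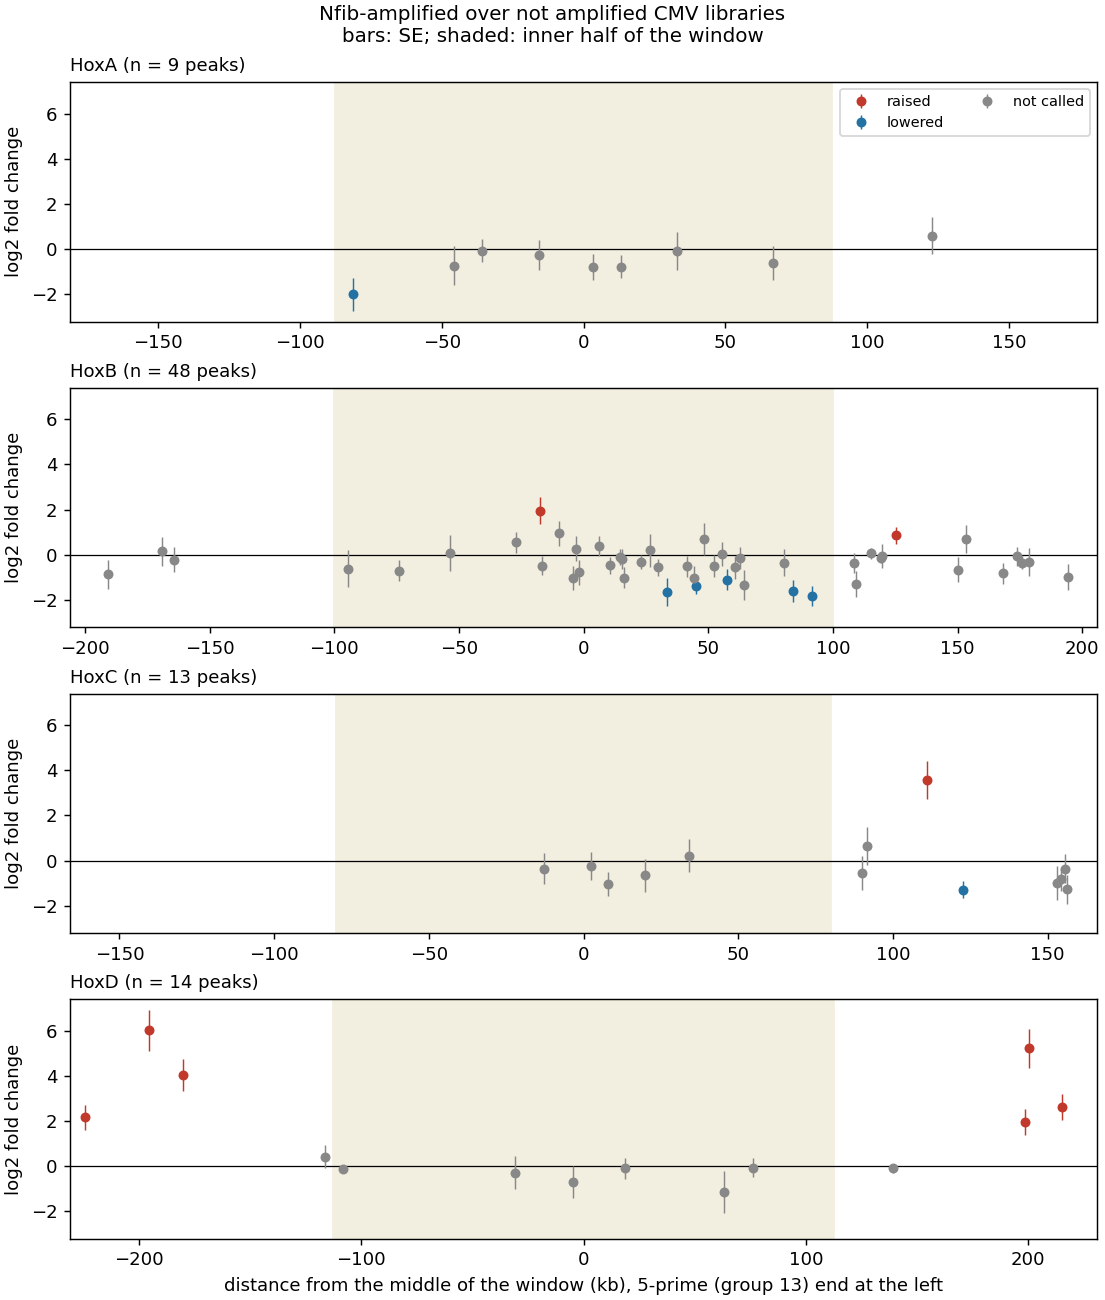
Log2 fold change (Nfib-amplified over not amplified CMV libraries) of each Hox peak against its distance from the middle of the window in kb, 5′ end at the left, with 1 panel per cluster, bars for the SE and the inner part of the window shaded. The 6 raised HoxD peaks lie at the 2 edges of the window, and 5 lowered HoxB peaks lie in the shaded part on the 3′ side.

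The raised HoxD peaks lay at both edges of its window. In GRCm38.p6 the promoters of Hoxd13 and Hoxd1 begin at 74667975 and 74762730, a span far shorter than the 450 kb window. Most of the window is thus outside the Hox genes, which cannot reach both runs, and HoxD peak here means a peak of the window. Their share, 42.9% of 14, was near the 34.3% of all peaks and the 33.7% of chromosome 2, so their position and not their number is described here. The 3 peaks nearest the 5′ edge were raised in a run of 44.3 kb, and the 3 nearest the 3′ edge in a run of 17.0 kb. The authors' deposited table put the largest of all 84 changes in the 5′ run, with a value of 6.02 (adjusted p = 2.7e-09, SE 0.89) at chr2:74329344-74329844. It gave 4.05 (SE 0.72) at chr2:74344555-74345055 and 2.17 (SE 0.56) at chr2:74300737-74301237, both also from the authors' deposited table. In the 3′ run, the authors' deposited table gave 5.23 (adjusted p = 8e-08, SE 0.86) at chr2:74724989-74725489. Its neighbours chr2:74723384-74723884 and chr2:74739906-74740406 had 1.97 (SE 0.58) and 2.62 (SE 0.59) in the authors' deposited table. The 3 largest changes were at peaks in which the CGRP pool had no summit. Their mean counts were 11.3 and 26.2 in the 5′ run and 14.4 in the 3′ run. Whether the not amplified libraries held no reads at such sites is not analysed here, so their fitted values are given without a fold.

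Between the runs lay 378 kb with 8 peaks. This stretch was bounded by the innermost raised peaks, so it could hold no raised call. Of its 8 peaks, 0 were called lowered, and 0 had an unadjusted p under 0.05 in either direction. Their log2 fold changes in the authors' deposited table ran from -1.15 to 0.41. The strongest, chr2:74416739-74417239, had -0.11 (SE 0.13, 95% interval -0.37 to 0.14), and chr2:74663714-74664214 had -0.08 (SE 0.20), per the authors' deposited table. With the median of all peaks subtracted these 2 sites were called lowered, the first at -0.72 (adjusted p = 5.6e-07) and the second at -0.69 (adjusted p = 0.0026), and the 6 raised peaks were still raised. Raised peaks were found beyond the window too. Of 39 peaks in the 500 kb on each side, 22 were raised (56.4%, against 33.7% of chromosome 2) and 2 lowered (5.13%, against 12.3%). Their median was 1.53, against 0.54 over chromosome 2, and no test was made. The 5′ flank held 8 raised of 16 and the 3′ flank 14 of 23. The inner part of the window, which is set by position, held 6 peaks with a median of -0.20. Their mean counts were 3.57 to 221, and the 2 weakest had SEs of 0.71 and 0.92.

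**Figure D2:**
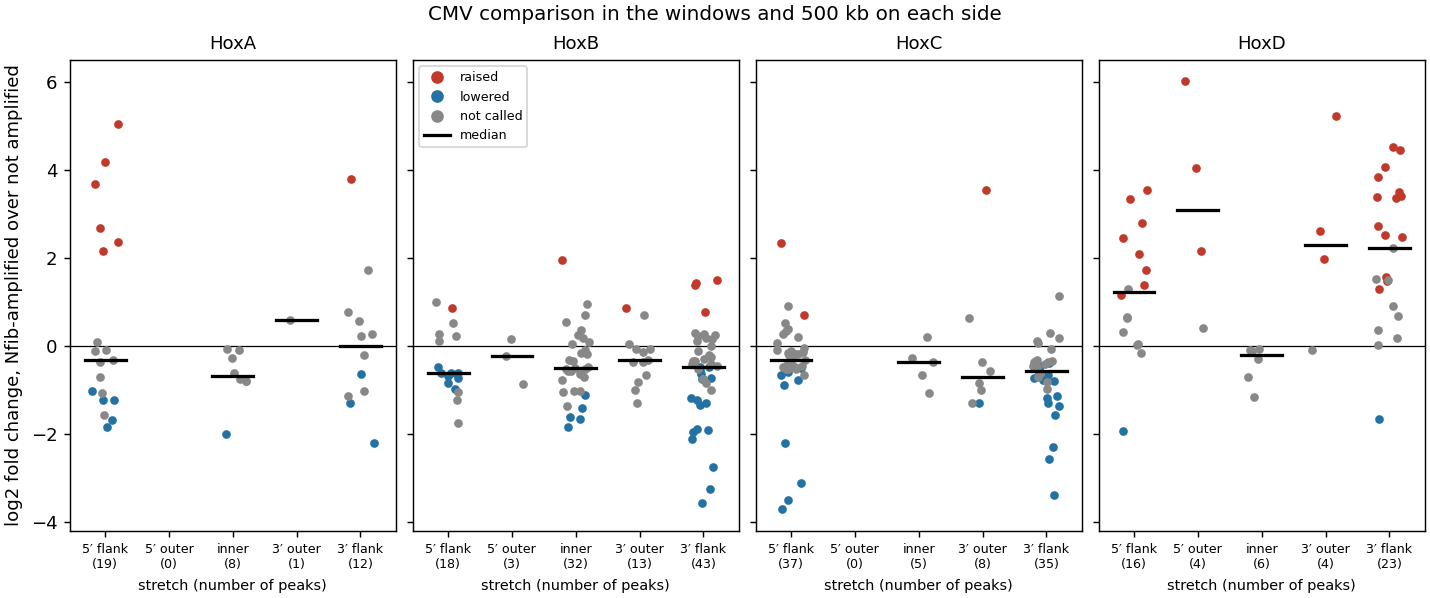
Log2 fold change in the CMV comparison by stretch of each window: 500 kb flank and outer part on the 5′ side, inner part, outer part and flank on the 3′ side, with 1 point per peak, a line for the median and the number of peaks in brackets. In HoxD, 0 of 6 inner peaks were called and 6 of 8 outer peaks were raised.

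HoxB, the cluster with the most peaks, held 5 lowered peaks, all on the 3′ side of its inner part. That is 10.4% of its 48 peaks, below the 12.2% of all peaks and the 20.3% of chromosome 11. On the 3′ side of the inner part alone the share was 22.7% of 22 peaks, near that of chromosome 11. It was 50% in the 500 kb flank on the 5′ side and 39.5% in that on the 3′ side. The authors' deposited table gave the largest falls at chr11:96241543-96242043, -1.83 (adjusted p = 0.00019, SE 0.43), and at chr11:96183263-96183763, -1.65 (adjusted p = 0.02, SE 0.62). The third was chr11:96233704-96234204, at -1.61 (adjusted p = 0.0037, SE 0.49) in the authors' deposited table, 8.34 kb end to end with the first. These 3 sites include both ends of the lowered stretch. The other two lowered peaks, named after their values were seen, were chr11:96194684-96195184 at -1.40 (SE 0.34) and chr11:96207336-96207836 at -1.10 (SE 0.45) in the authors' deposited table. They lay among peaks that were not called: of 22 peaks on the 3′ side of the inner part, 17 were not lowered and 4 had values above 0. The cluster's 2 raised peaks were chr11:96132207-96132707 in its middle, at 1.96 (adjusted p = 0.0041, SE 0.60), and chr11:96274849-96275349 near its 3′ side, at 0.86 (adjusted p = 0.047, SE 0.38), per the authors' deposited table. Neither stayed raised relative to the median of all peaks, where 22 HoxB peaks were lowered, a count without a share of all peaks beside it. Its strongest peak, chr11:96268861-96269361, had -0.13 (SE 0.25) in the authors' deposited table.

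The surroundings of HoxB also had low values, with a larger share of lowered peaks than the window. In the 500 kb on each side, 26 of 61 peaks were lowered (42.6%, against 10.4% in the window) and 5 raised (8.20%, against 19.4% of chromosome 11). Their median was -0.52, and over all of chromosome 11 the median was -0.05, against 0.60 over all peaks. The flanking peaks were stronger, with a median mean count of 26.7 against 19 in the window.

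HoxA and HoxC each held 1 lowered peak. In HoxA it was chr6:52255850-52256350, the peak furthest to the 5′ side, at -2.003 (adjusted p = 0.016, SE 0.72) in the authors' deposited table and with a mean count of only 6.07. All other HoxA peaks of the inner part had values below 0, and 0 of 9 were raised, also at an unadjusted p under 0.05. The strongest HoxA peak, chr6:52052052-52052552 at the 3′ edge, had 0.60 (SE 0.81) in the authors' deposited table, which became -0.01 with the median of all peaks subtracted. In HoxC the strongest peak, chr15:102932364-102932864, was lowered, at -1.30 (adjusted p = 0.0026, SE 0.38) in the authors' deposited table. At a distance of 11.7 kb, chr15:102920700-102921200 was raised, at 3.56 (adjusted p = 0.00018, SE 0.84) in the authors' deposited table, and it too held no summit of the CGRP pool. These neighbours of opposite sign lay in the 3′ outer part of the window, and 0 of 5 inner HoxC peaks were called (1 was lower at an unadjusted p under 0.05). In the 500 kb flanks of HoxA, 7 of 31 peaks were raised (22.6%, against 37.2% of chromosome 6) and 8 lowered (25.8%, against 11.5%). In those of HoxC, 2 of 72 were raised (2.78%, against 33.4% of chromosome 15) and 25 lowered (34.7%, against 13.4%).

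The positions of calls within the windows came mainly from HoxD and HoxB. Over the 4 clusters, the inner part of the windows held 51 peaks with 1 raised and 6 lowered, and the outer parts 33 peaks with 8 raised and 1 lowered. HoxD gave 6 of the 8, and HoxB 5 of the 6. The shares, 24.2% raised in the outer and 11.8% lowered in the inner parts, were not above the 34.3% and 12.2% of all peaks. Peaks of neighbouring sites share libraries, so these are counts without a test. The 3′ sides held 59 peaks and the 5′ sides 25: 35 against 13 in HoxB, 12 against 1 in HoxC, 5 against 4 in HoxA and 7 against 7 in HoxD. The 3′ sides held 5 raised and 6 lowered peaks, and the 5′ sides 4 raised and 1 lowered. The median log2 fold change in the CMV comparison was -0.21 on the 5′ side and -0.36 on the 3′ side of HoxB, with 0 of 13 and 5 of 35 peaks lowered. In HoxD it was 0.41 and -0.07, with 3 of 7 raised on each side. In HoxA it was -0.50 and -0.61. The order of the sides in HoxA and HoxD depended on where the window was split, as given in the closing section.

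In the CGRP comparison, most Hox peaks leaned towards liver metastases without any call. All 7 liver metastases were of preparation batch 2, and of the 11 lung tumors 7 were of batch 2 and 4 of batch 3. Tissue and batch can thus not be fully told apart here. Of 77 Hox peaks with an adjusted p in the authors' deposited table, 0 were called, against 0.0752% raised and 0.779% lowered (0.854% in all) of 105121 peaks, and the smallest adjusted p was 0.134. At an unadjusted p under 0.05, 5 of 84 Hox peaks were higher, against 3.37% of all peaks, and 1 of 84 was lower, against 6.25%. The log2 fold change (liver over lung) was above 0 for 66 of 84 Hox peaks, or 78.6%, against 51.1% of all, and its median was 0.41 against 0.01. Its sign held in HoxA (8 of 9), HoxB (41 of 48) and HoxC (11 of 13), with medians of 0.42, 0.49 and 0.31, but HoxD had 6 of 14 above 0 and a median of -0.04. The lean reached beyond HoxB: 49 of 61 flanking peaks and 60.3% of those on chromosome 11 were above 0. In the flanks of HoxC 47 of 72 were above 0 and in those of HoxD 24 of 39, but in those of HoxA only 13 of 31. The median SE was 0.49, so a typical Hox peak needed a log2 change of 0.96 to reach an unadjusted p of 0.05.

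The smallest adjusted p belonged to the strongest HoxD peak, chr2:74416739-74417239, at -0.33 (SE 0.11, p = 0.0025, adjusted p = 0.13) in the authors' deposited table. The largest value was that of chr15:102796843-102797343, the only peak on the 5′ side of HoxC, at 1.66 (adjusted p = 0.23, SE 0.62) in the authors' deposited table. In HoxB, chr11:96268861-96269361 had 0.44 (adjusted p = 0.43, SE 0.21) in the authors' deposited table. Of the 5 higher at an unadjusted p under 0.05, 1 was this HoxC peak and 4 were in HoxB. The other three in HoxB, named after their values were seen, were chr11:96133022-96133522, chr11:96207336-96207836 and chr11:96274849-96275349, at 0.88 (SE 0.35), 0.77 (SE 0.37) and 0.82 (SE 0.32) in the authors' deposited table. The last of them was also raised in the CMV comparison, and the second was lowered there. The median of HoxB was 0.75 on its 5′ side and 0.44 on its 3′ side, an order that turned with the split.

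**Figure D3:**
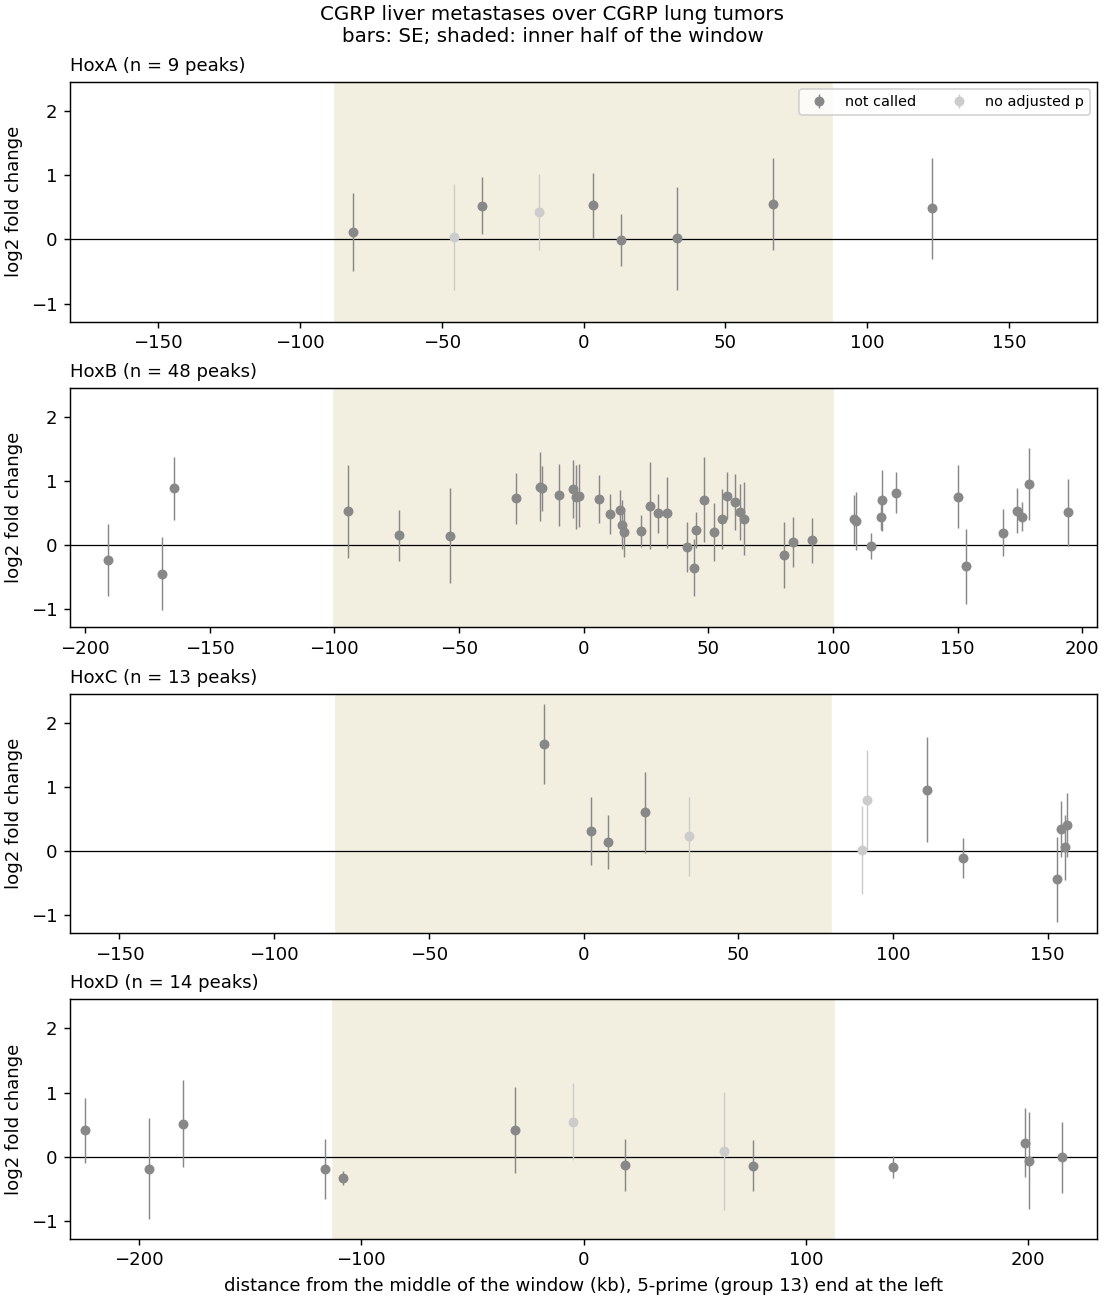
Log2 fold change (liver metastases over lung tumors, CGRP libraries) of each Hox peak against its distance from the middle of the window in kb, 5′ end at the left, with bars for the SE and light points for the 7 peaks without an adjusted p. Most HoxA, HoxB and HoxC points lie above 0 and 8 of 14 HoxD points below it.

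The comparisons share no library, so a peak's change was contrasted between them with a two-sided z test, adjusted by the Benjamini-Hochberg method over all 113873 peaks. The test takes the 2 estimates as independent. Both comparisons carry the same mean count per peak, and whether their fits shared other terms was not tested. Of the Hox peaks, 4 had a higher value in the CMV comparison, against 17.8% of all peaks, and 6 a higher value in the CGRP comparison, against 5.62%. The 10 together compare with 23.4% of all peaks. All 4 were raised HoxD peaks, and all 6 were HoxB peaks. The 6 of 48 HoxB peaks compare with 843 of 6481 on chromosome 11 and 21 of 61 in the 500 kb flanks. The 4 of 14 HoxD peaks compare with 1619 of 9534 on chromosome 2 and 10 of 39 in the flanks. In HoxD the adjusted p of the difference was 2.2e-05 at chr2:74329344-74329844, 0.00018 at chr2:74724989-74725489, 0.0047 at chr2:74344555-74345055 and 0.0094 at chr2:74739906-74740406. The log2 fold changes in the CGRP comparison at these sites were -0.19, -0.06, 0.52 and -0.01 in the authors' deposited table, and none of them was called there. The first 3 of these sites held no summit of the CGRP pool, only summits of the CMV and mixed pools. Those pools hold the amplified CMV libraries, so the CGRP values at the 3 sites are no separate support for a difference. In HoxB the 6 were the 5 lowered peaks and chr11:96145639-96146139, with adjusted p from 0.0028 to 0.043. For the latter, named after its value was seen, the authors' deposited table gave -1.02 (SE 0.54) in the CMV and 0.87 (SE 0.45) in the CGRP comparison. In all, 49 of 84 Hox peaks were below 0 in the CMV and above 0 in the CGRP comparison. The same signs were found at 16157 of all 114043 peaks and at 77 of 203 peaks in the 500 kb flanks. By cluster the flanks held 34 of 61 in HoxB, 38 of 72 in HoxC, 4 of 31 in HoxA and 1 of 39 in HoxD. In the centred test the median of all peaks was subtracted in each comparison. It gave 27 Hox peaks higher in the CGRP comparison in place of 6, again without a share of all peaks.

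**Figure D4:**
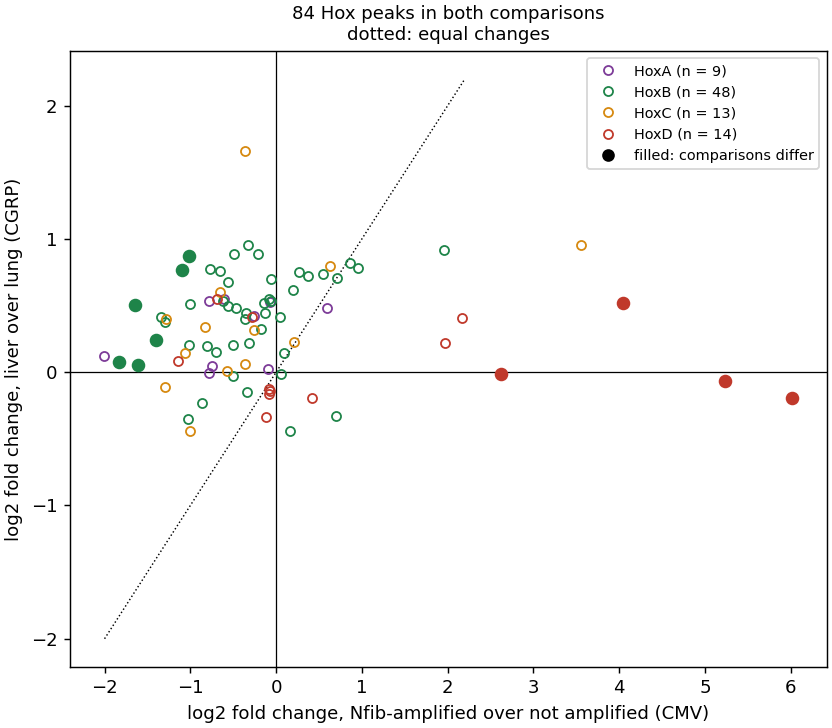
Log2 fold change of each Hox peak in the CGRP comparison (vertical) against the CMV comparison (horizontal), coloured by cluster, with filled points for the 10 peaks whose changes differed at an adjusted p under 0.05 and a dotted line for equal changes. The 4 filled HoxD points lie far to the right, from -0.19 to 0.52 on the vertical axis, and the 6 filled HoxB points lie at the left above 0.

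Summits called on pooled libraries were present in most Hox peaks for each pool. Pools have no replicate, and the intervals here (Wilson, 95%) cover counting error only. A summit within 250 bp of the centre was present for 79 Hox peaks in the mixed pool (94.0%, 86.8 to 97.4%), against 89.5% of all peaks. The CGRP pool had one for 76 (90.5%, 82.3 to 95.1%), against 75% of all, and the CMV pool for 72 (85.7%, 76.7 to 91.6%), against 88.6%. All 3 pools had a summit in 64 Hox peaks (76.2%), against 64.8% of all: 39 of 48 in HoxB, 8 of 9 in HoxA, 8 of 13 in HoxC and 9 of 14 in HoxD. The CMV pool holds 15 low-enrichment libraries beside 2 amplified and 2 not amplified ones of the comparison. Of the low-enrichment libraries, 4 liver metastases and 2 lung tumors were labelled Nfib-amplified too. The share of this mixed set does not speak for the amplified group. The number of summits in the windows was 118 in the CMV, 129 in the CGRP and 116 in the mixed pool. HoxB had 63, 67 and 63 of these. HoxC had 29 summits in the CGRP pool, against 14 in the CMV and 16 in the mixed pool, while HoxD had fewest there, 21 against 27 and 23. Pools differ in libraries and batch, so these counts were not compared by a test.

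**Figure D5:**
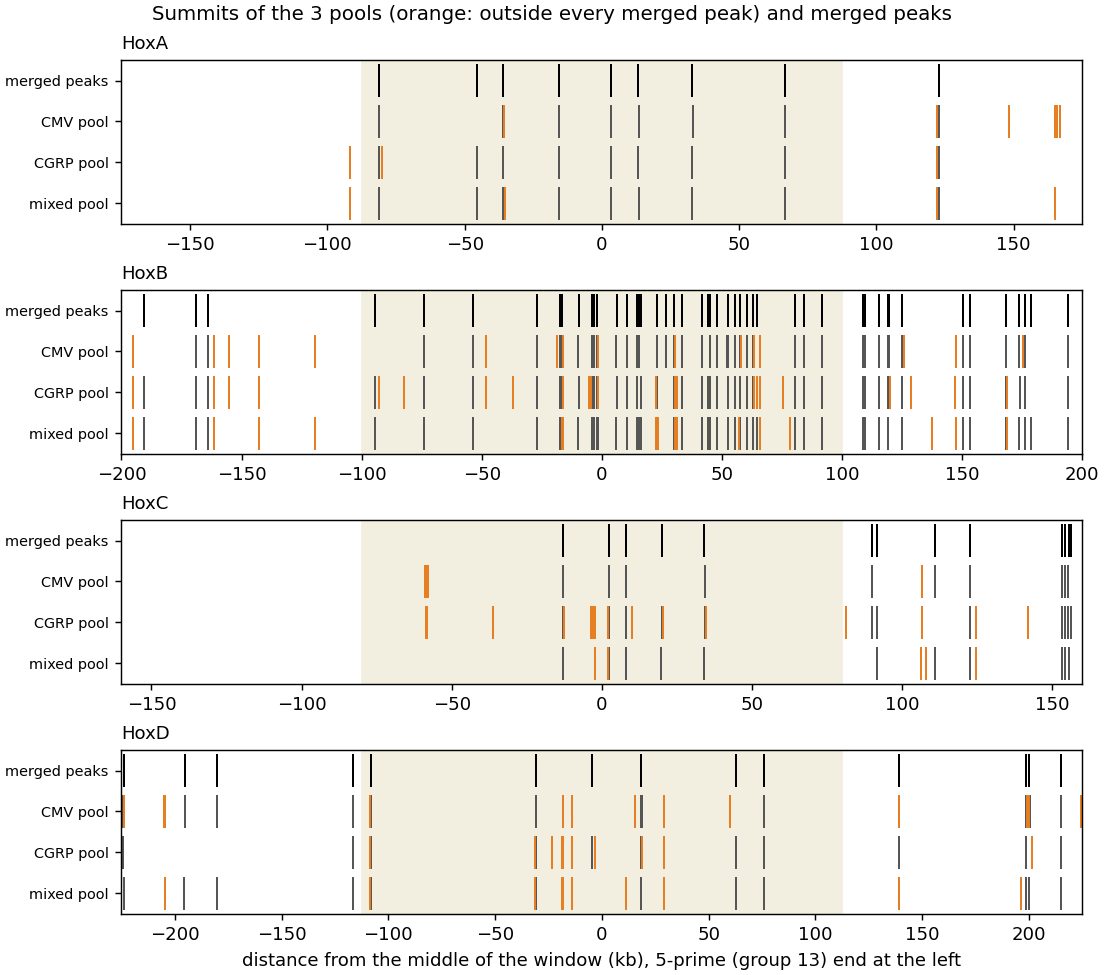
Position of each pool's summits in the 4 windows against distance from the middle in kb, 5′ end at the left, with 1 row for the merged peaks and 1 per pool, and orange for summits outside every merged peak. HoxB carries the most summits in every pool, 63, 67 and 63, and HoxC carries 29 in the CGRP pool.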

How the data were processed

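ATAC-seq libraries of tumors were summarised by the submitters in 3 summit lists, 1 merged peak list and 2 tables of comparisons. The submitters' processing notes name Bowtie2, MACS2, DESeq2 and the build mm9. Their versions, any read shift or filter and the covariates of the fit are not given in the sources at hand. The score of the deposited summits and merged peaks was read as −log10 of a q-value, since its smallest value is 1.30, and was used within a pool only. The mean normalised count, a signal, was averaged over libraries by the authors. Per the file headers, the authors supplied each log2 fold change with its SE, Wald score, p-value and adjusted p. The direction was read from the table names. Further deposited p-values ask for a change beyond a log2 of 0.5, which was checked to within 4.4e-11. The description of 1 not amplified CMV library does not name the comparison table.

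Preparation batches by label were 1 and 3 in both CMV groups, 2 in the CGRP liver metastases, and 2 and 3 in the CGRP lung tumors. With 0 columns of per-library values, no within-batch value could be computed.

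The members, lists, tests and alternatives were chosen with earlier results of these data known. Each window was cut at its middle into a 5′ and a 3′ side, and its inner part is the central 50%. Named sites are, per cluster and comparison, up to 3 raised and 3 lowered called peaks of largest absolute change, the peak of highest mean count, any CGRP call, and runs of at least 3 called neighbours of 1 sign. Alternatives covered thresholds, the second deposited test, adjustment over all peaks, a mean count of at least 20, centring, other windows and splits, and summit distance and score. The difference and centred tests were tested on simulated data. No mm9 annotation was used, hence peaks carry no gene names here and the labelled tissues were not checked against marker genes. Coordinates are 1-based. Tools were scipy 1.17.1, pandas 2.3.3, numpy 2.4.6 and matplotlib 3.10.9 under Python 3.11.15.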

Additional observations from a re-analysis of the deposited data

Results flagged for a closer look

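Some summits of each pool lay in the Hox windows but in no merged peak, so no comparison covers them. There were 41 in the CMV pool (34.7% of its Hox summits), 53 in the CGRP pool (41.1%) and 36 in the mixed pool (31.0%). Over the genome the shares were 57.5%, 48.9% and 48.6%. In the CGRP pool, 17 of the 53 were in HoxC, against 4 in the CMV and 5 in the mixed pool. The highest-scoring one of HoxB lay at position 96297162 in the CGRP pool and 96297206 in the mixed pool, 3105 and 3061 bp from the nearest merged peak centre.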

How the results depend on the processing

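No paired analysis was possible because the tables hold no values per library, and for the same reason no library could be left out. The number of lowered Hox peaks in the CMV comparison, 7, became 4 at an adjusted p under 0.01, 13 under 0.1, 2 with the second deposited test, 31 with centring and 19 with windows widened by 50 kb. The number raised, 9, became 5 with a mean count of at least 20 and 1 in the inner part of the windows. The median of -0.33 became -0.94 with centring, and the HoxA peak at 52052052 turned from 0.60 to -0.0084. The 16 called peaks kept their sign under the other thresholds, the second test and centring, and 10 of them had a mean count of at least 20. Of the 16, 12 were still called at 0.01, 9 with the second test and 14 with centring. Peaks higher in the CGRP comparison, 6, became 27 with centring and 2 at 0.01. The counts with centring have no share of all peaks beside them. The CGRP comparison had 0 calls among Hox peaks under every alternative run (5 higher and 1 lower at an unadjusted p under 0.05).

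The 5′ median minus the 3′ median moved with the split. In the CMV comparison it went from 0.11 to -1.997 in HoxA with the middle of the window left out, and from 0.48 to -0.20 within the inner part in HoxD. In the CGRP comparison it went from 0.31 to -0.27 in HoxB and from 0.47 to -0.13 in HoxD with the middle left out, and from 1.39 to 0.073 in HoxC split at its median peak. HoxC gave no value with the middle left out. With summits of a score of at least 5, 58 Hox peaks in place of 72 held a CMV summit and 69 in place of 79 a mixed one. The cause of these shifts was not tested. Weak peaks limit the precision.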
